A study of Mus musculus with 12 samples.

Results

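The liver makes most of the proteins that circulate in blood plasma, and the 32 mouse genes described here encode such proteins or, for Cps1, a liver enzyme. They were chosen from a fixed list of symbols, matched through Entrez identifiers to the rows of the count files, and all 32 were found among 27179 genes. By role they are 8 carriers and binding proteins (Alb, Afp, Ttr, Trf, Hp, Hpx, Ambp and Mup20), 6 apolipoproteins (Apoa1, Apoa2, Apoa4, Apob, Apoc3 and Apoh), 7 coagulation and fibrinolysis genes (Fga, Fgb, Fgg, F2, Plg, Serpinc1 and Kng1), 2 pentraxins (Crp and Apcs), 6 inhibitors and related proteins (Ahsg, Serpina1b and Itih1 to Itih4), 2 complement components (C8a and C9) and the urea cycle enzyme gene Cps1. Medullary thymic epithelial cells (mTECs) transcribe many genes that otherwise mark a single peripheral organ, so that developing T cells meet the products inside the thymus. Much of this ectopic transcription depends on Aire, a chromatin-associated regulator of mature mTECs, and another share on the transcription factor Fezf2. Some mTECs also take on features of peripheral cell types, such as gut and liver cells, with the lineage regulators of those tissues.

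RNA was measured in 12 sorted libraries from C57BL/6 mice, 3 for each of 4 groups. Cortical thymic epithelial cells (cTECs) and mTECs with high MHC class II (mTEChi) were taken from control mice, which carry floxed Hoil without Cre (labelled Foxn1cre+/+ Hoil lox/lox), and from HOIL-deficient mice, which carry the same floxed allele with a Foxn1-driven Cre that deletes it in thymic epithelium. HOIL-1, the product of Rbck1, belongs to the linear ubiquitin chain assembly complex, which acts in signalling to NF-kB. Sorting took EpCAM-positive cells without CD45, TER-119 or CD31, as MHCII-positive Ly51-positive UEA1-negative cTECs or as MHCII-high Ly51-negative UEA1-positive mTEChi. All libraries are labelled male except replicate 3 of both HOIL-deficient groups, which are labelled female, and ages are not stated in the labels. Nothing in the labels ties replicates to separate animals, so p-values reflect only sample-to-sample spread, which may be technical. In RNA from sorted pools, fewer cells with a transcript and less transcript per cell cannot be told apart.

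Total counts ranged from 7941217 to 14274333 per library, and levels are in CPM, the count scaled by that total. Rbck1, the targeted gene, fell from 183, 236 and 221 CPM to 22.0, 33.0 and 22.5 CPM in cTECs and from 114, 128 and 108 CPM to 10.9, 11.7 and 23.3 CPM in mTEChi. Summed cTEC markers lay between 14688 and 32717 CPM in cTECs and between 1677 and 2169 CPM in mTEChi, and Aire lay between 577 and 1016 CPM in mTEChi and at or below 1.66 CPM in cTECs. Replicate 1 of control mTEChi stood apart from its group: its counts differed from replicates 2 and 3 with a chi-square of 57.4 and 35.6 per degree of freedom over genes, against 6.37 between those 2, and 8.93% of its counts were mitochondrial against 3.19 and 4.35%. In the HOIL-deficient mTEChi libraries the mitochondrial share was 1.71 to 1.91%. Replicate 1 of control cTECs also differed from the other two (48.7 and 35.8, against 10.5 between them).

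The liver plasma protein genes were detected throughout mTEChi and in part in cTECs. Every control mTEChi library had at least 1 count for all 32 genes. In HOIL-deficient mTEChi, replicates 1 and 3 also held all 32, and replicate 2 held 29, or 90.6%, with Apcs, Serpina1b and C9 at 0. Control cTEC libraries held 15, 17 and 14 of the 32 (46.9, 53.1 and 43.8%), and HOIL-deficient cTEC libraries held 14, 12 and 14 (43.8, 37.5 and 43.8%). For all genes in the files, the share with a count was 77.9 to 86.3% in mTEChi libraries and 62.7 to 67.4% in cTEC libraries. A count of 0 in a single library allows up to 3 counts, which is 0.21 to 0.378 CPM at these depths, and this limit covers counting error only. In control cTECs, 11 of the genes had no count in any library: Ambp, Mup20, Fga, Fgb, Plg, Kng1, Apcs, Itih1, Itih3, C8a and C9.

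**Figure D1:**
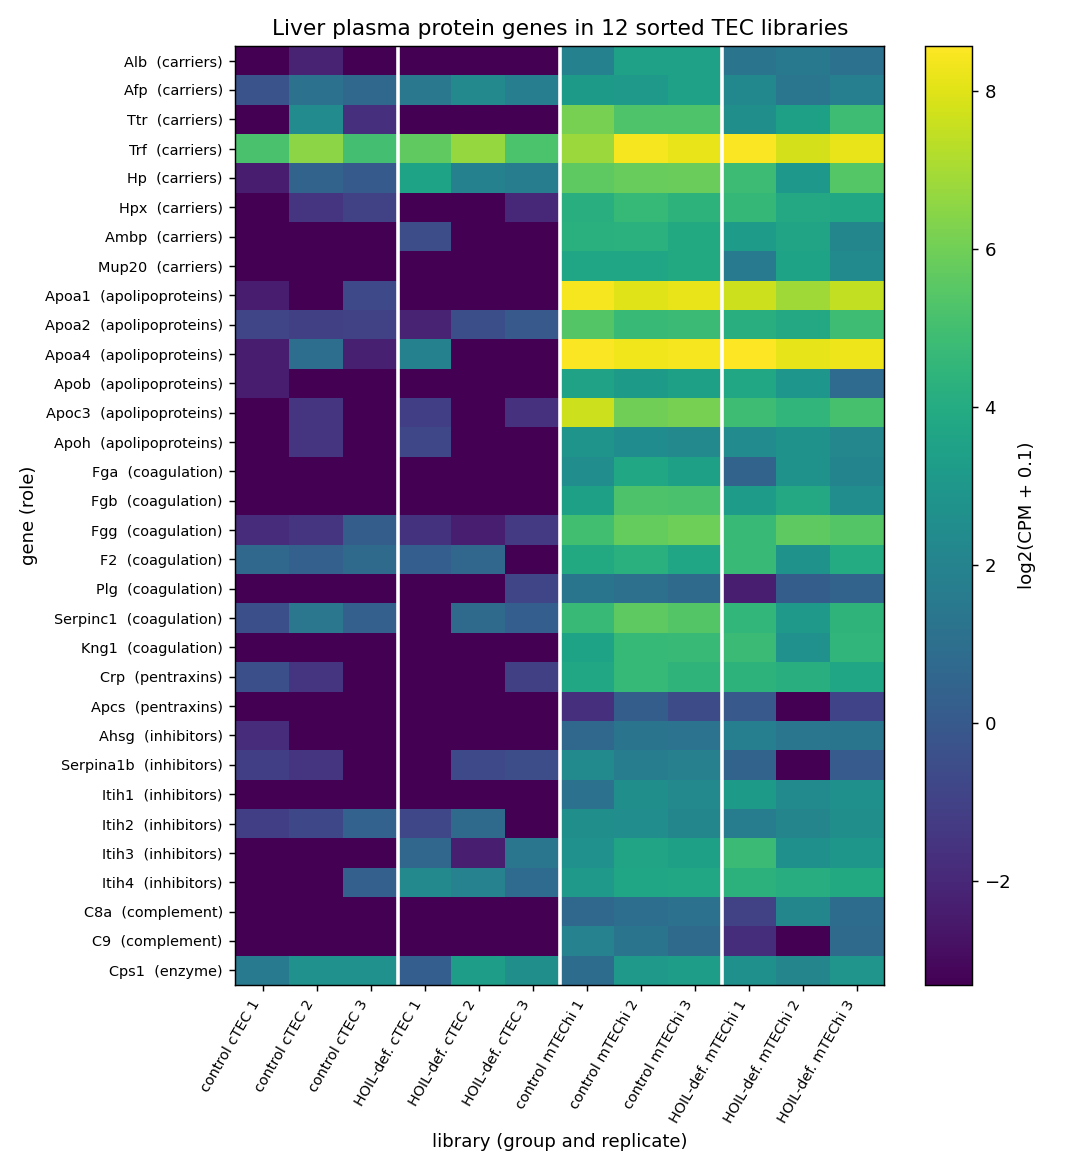
Level of each of the 32 genes (rows, with role) in each of the 12 libraries (columns, by group and replicate), coloured by log2(CPM + 0.1), so that the darkest cells hold no count. The mTEChi columns are filled for all rows except 3 in replicate 2 of the HOIL-deficient group, and in the cTEC columns Trf, Cps1, Afp, Hp, Apoa2 and Fgg have counts in every library.

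Summed over the 32 genes, control mTEChi held 1411, 1475 and 1467 CPM. HOIL-deficient mTEChi held 1291, 885 and 1119 CPM, below every control library. The cTEC sums were 43.4, 113 and 49.1 CPM in controls and 80.0, 132 and 57.1 CPM in HOIL-deficient libraries, with overlap. A few genes made up most of each sum. In control mTEChi, Apoa4, Apoa1 and Trf took 23.6, 20.4 and 17.1%, and in HOIL-deficient mTEChi they took 29.2, 15.1 and 26.7%. In cTECs the sum was mainly Trf, with 76.8% in controls and 71.2% in HOIL-deficient libraries. Trf encodes transferrin, the plasma iron carrier, which cells outside the liver also transcribe.

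**Figure D2:**
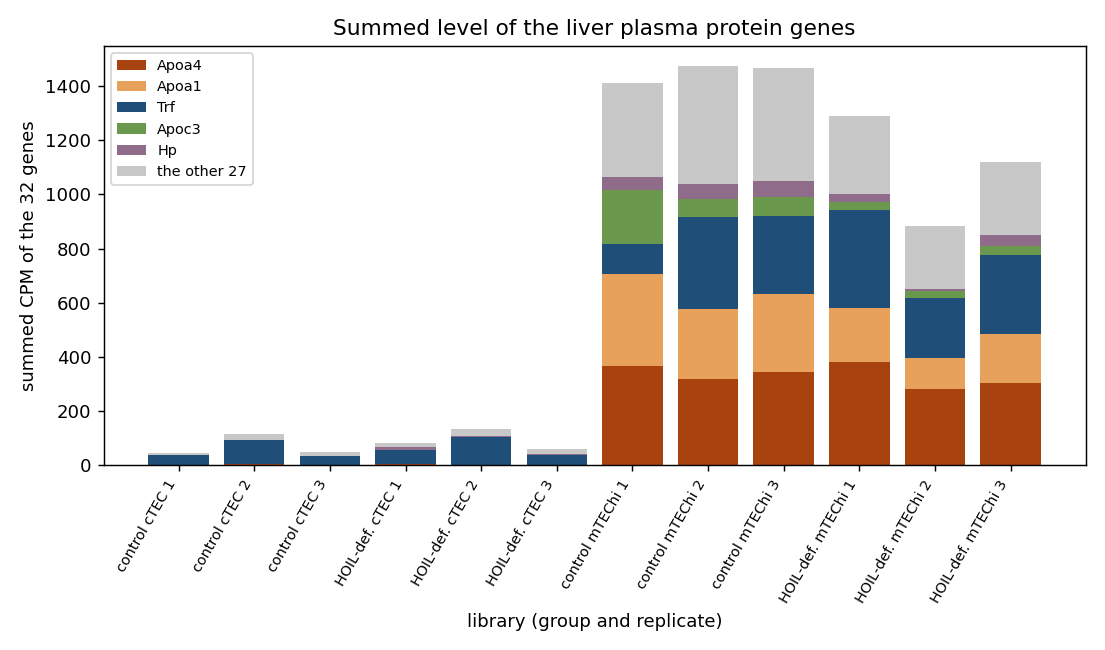
Summed CPM of the 32 genes in each library, stacked by the 5 genes with large shares and the other 27 together. The control mTEChi bars stand between 1411 and 1475 CPM, the HOIL-deficient mTEChi bars between 885 and 1291 CPM, and all cTEC bars at or below 132 CPM, mostly Trf.

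Levels can be ranked between genes only per transcript length, so CPM were divided by the deposited gene length in kilobases (CPM per kb). In control mTEChi the order began with Apoa1, the main protein of high-density lipoprotein, at 300.0 ± 42.6 CPM per kb (SD, n = 3), followed by Apoc3, an inhibitor of triglyceride clearance, at 212 ± 145 and Apoa4, an apolipoprotein made in gut and liver, at 206 ± 14.3. Apoc3 and Apoa4 did not differ beyond their spread. Trf followed at 106 ± 51.9, Apoa2, another protein of high-density lipoprotein, at 61.7 ± 17.1, and Hp, which encodes the haemoglobin scavenger haptoglobin, at 40.4 ± 3.69. Ttr, the thyroxine and retinol carrier transthyretin, had the same mean of 40.4 ± 14.7. Alb, whose product is the most abundant protein of plasma, ranked 19 of 32, at 4.205 ± 2.12 CPM per kb. The lowest gene was C8a, a component of the complement membrane attack complex, at 0.502 ± 0.0757. Apoa2 overlaps Tomm40l, F2 overlaps Ckap5 and C8a overlaps Fyb2, and with the strand setting of the counting not given in the sources used here, reads of such pairs cannot be told apart. Serpina1b, Mup20 and Kng1 have near-identical relatives, so their counts are uncertain.

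The spread between replicates, fitted over all 4 groups together, was wide for these genes. Their biological coefficient of variation, edgeR's estimate of replicate spread after counting noise, had a median of 0.449 over the 31 genes that passed the filter on low counts. The median was 0.285 over all 19398 tested genes and 0.286 over the 17757 genes within the same range of mean level. That range held most tested genes, so it is no close match for level. The lowest value was 0.226 for Apoa1 and the highest 1.07 for Apoa4, whose cTEC counts ranged from 0 to 3.67 CPM.

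Control mTEChi were compared with control cTECs to describe the levels of these genes in both populations. Of the 31 tested genes 30 were higher in mTEChi by edgeR's quasi-likelihood test, and none was lower. Among the 31, 10 had no count in any control cTEC library and passed the filter on low counts through other groups. These could not come out lower, so the count of 30 is a description and no test of the list. Of all tested genes 64.2% passed at an adjusted p under 0.05, 37.8% higher and 26.4% lower. The median log2 fold change of the 31 was 6.67, or 6.19 when genes with no count in cTECs are set at their lower bound, against 0.24 over all tested genes. In 31 of the 32 genes every mTEChi library was above every cTEC library, where 39.6% of all tested genes were. Cps1, the mitochondrial enzyme that starts the urea cycle, was the exception. It stood at 2.76, 6.30 and 6.30 CPM in control cTECs and at 1.74, 8.38 and 9.60 CPM in control mTEChi (log2 fold change 0.43, SE 0.68, adjusted p = 0.59 by edgeR). Its HOIL-deficient values, 1.07, 10.1 and 5.88 CPM in cTECs and 6.21, 4.11 and 7.29 CPM in mTEChi, overlapped those of the controls. Apoc3 had 2 counts in all control cTEC libraries together against 3175 in mTEChi, a ratio of 1610 with an exact 95% counting interval of 445 to 13302. Alb had 1 count against 238, a ratio of 241 (42.9 to 9575). Fgb, the fibrinogen beta chain, had none against 775 and was at least 262-fold higher. The smallest called differences were those of Trf (log2 2.30, SE 0.48), Afp (2.82, SE 0.48) and Itih2 (2.99, SE 0.86), all of which had counts in at least 2 cTEC libraries.

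The same comparison between HOIL-deficient cells called 27 of the 31 genes higher in mTEChi, where 48.4% of all tested genes passed and 32% were higher, and none lower. Here 12 of the 31 had no count in any HOIL-deficient cTEC library, so they could not come out lower, and the count of 27 is again a description. In 25 of the genes every mTEChi library was above every cTEC library, where 32.8% of all tested genes were. Afp, Plg, Serpina1b and Cps1 did not pass. Afp, the fetal counterpart of albumin, stood at 2.61, 4.71 and 3.24 CPM in HOIL-deficient cTECs and at 4.64, 2.43 and 3.36 CPM in HOIL-deficient mTEChi, so the groups overlapped (log2 0.10, SE 0.45, adjusted p = 0.88 by edgeR). This comparison and the one between control cells use different libraries. Another scaling of the libraries (RLE) moved the median of all genes in the control comparison from 0.24 to 0.43, and the fold changes given above are on the TMM scale, edgeR's default.

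The next comparison, within mTEChi, addressed what loss of HOIL-1 did to liver gene transcription in the medulla. It shares the control mTEChi libraries with the comparison of control cells above. Of the 31 genes 4 fell (Alb, Afp, Apoa1 and Apoc3) and none rose. Over all tested genes 19.9% passed in this comparison, 8.59% lower and 11.3% higher, so the count of lower genes, 4 of 31 or 12.9%, is not far from the background. The log2 fold change was negative in 24 of the 31 genes, with a median of -0.49 against -0.03 over all tested genes and a range from -2.41 to 0.61. In 12 genes every HOIL-deficient library lay below every control library, and in 2 (Ahsg and Itih4) above, where 20.6 and 23.8% of all tested genes did so. The 12 were Alb, Afp, Ttr, Hp, Ambp, Mup20, Apoa1, Apoc3, Plg, Serpinc1, Serpina1b and C9.

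These calls moved with the samples and the tool. The number of genes called lower was 4 with edgeR as reported, 13 with limma-voom, 8 when only the mTEChi libraries were fitted, 5 with DESeq2 and 2 without the libraries labelled female. Under these settings, in the same order, 56.8, 47.8, 51.9, 46.2 and 57.9% of all genes called were higher. The share of all tested genes called lower is not given for each setting. These counts therefore do not measure the list against other genes. Leaving out any single mTEChi library gave 1 or 2, among which C9, Mup20 or Fgb appeared in place of some of the 4. Of the 4, Apoc3 was called in 13 of 14 alternatives, Apoa1 in 8, and Alb and Afp in 7 each. No gene of the list was called higher in mTEChi under any of these settings. Of all genes called in this comparison, 2191 were higher and 1667 lower on the TMM scale, and with upper-quartile scaling 1708 were higher and 1979 lower. Across the 14 alternatives, the number of all genes called in either direction ranged from 1944 to 4863. The background thus moved with the setting, and the list counts under the alternatives are not read against it.

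**Figure D3:**
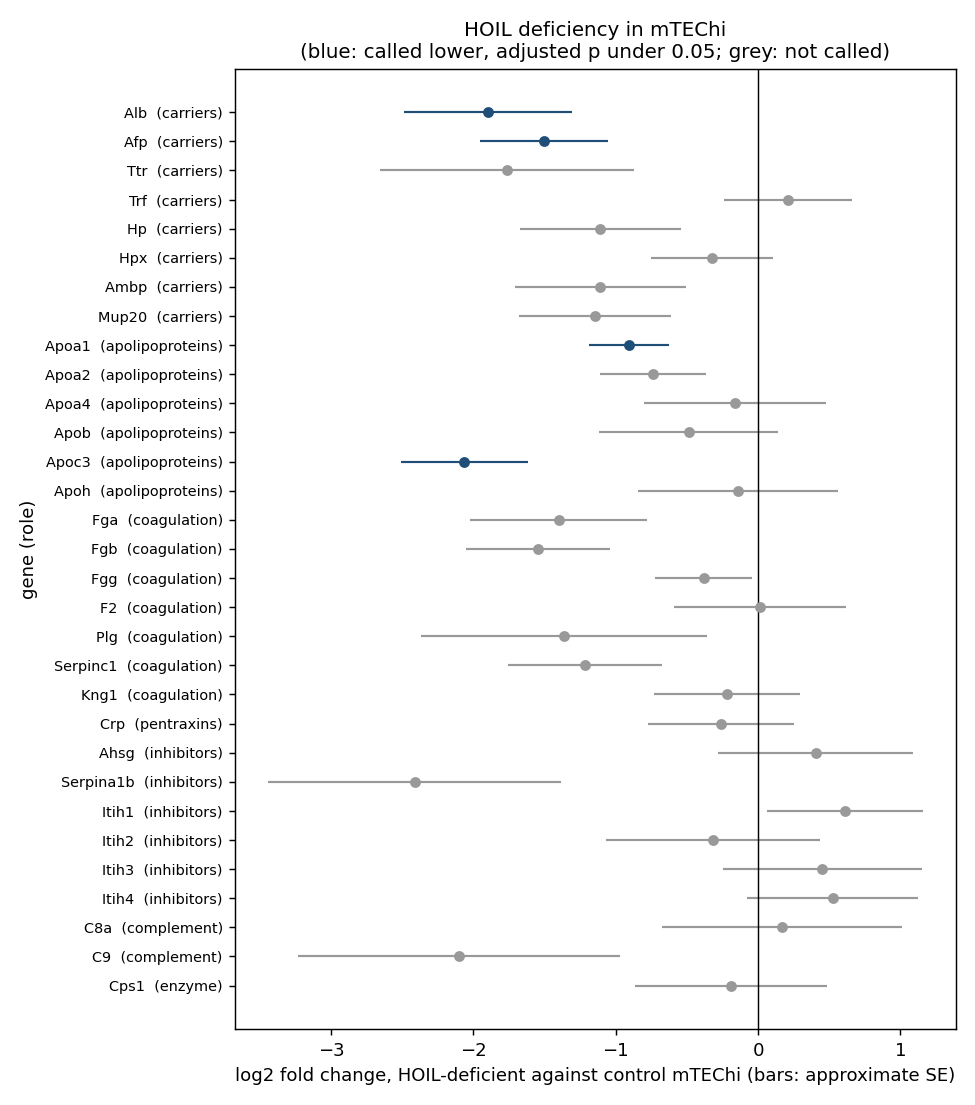
Log2 fold change of HOIL-deficient against control mTEChi for the 31 tested genes, grouped by role (points; bars are the approximate SE). The 4 blue points are the genes called lower, and 24 points lie to the left of 0.

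Among the carriers, Alb and Afp fell together. Alb, on chromosome 5 from 90460870 to 90476602 (Entrez 11657, mm10), encodes albumin, the main protein of plasma. It stood at 3.58, 10.96 and 11.2 CPM in control mTEChi and at 2.27, 2.71 and 2.10 CPM in HOIL-deficient mTEChi. Replicate 1 of the controls was well below the other controls, yet above every HOIL-deficient library (log2 fold change -1.90, SE 0.59, edgeR adjusted p = 0.041). Its neighbour Afp (Entrez 11576, 90490714 to 90508907), which starts 14.1 kb beyond the end of Alb, encodes alpha-fetoprotein, the albumin relative of the fetal liver. Afp went from 8.70, 8.58 and 11.1 CPM to 4.64, 2.43 and 3.36 CPM, without overlap (-1.50, SE 0.45, edgeR adjusted p = 0.031). Alb kept its call when control mTEChi replicate 1 was left out and lost it without any of the other 5 mTEChi libraries (adjusted p 0.090 to 0.17). Afp kept its call without HOIL-deficient replicate 1 and lost it without any of the others (0.056 to 0.11).

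The 250 bases before the annotated start of both genes are shown because the pair fell together and both windows hold the same kind of motif. The sequences are from RefSeq on GRCm38.p6, the assembly named mm10, in the direction of transcription. Capitals mark matches, on either strand, to TTGCNNAA, a C/EBP-type motif.
Alb (chr5:90460620-90460869, plus strand): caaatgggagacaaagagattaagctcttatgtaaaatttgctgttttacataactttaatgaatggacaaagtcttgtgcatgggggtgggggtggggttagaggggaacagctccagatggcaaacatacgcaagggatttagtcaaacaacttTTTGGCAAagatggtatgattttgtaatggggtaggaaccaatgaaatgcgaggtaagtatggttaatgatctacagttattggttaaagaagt
Afp (chr5:90490464-90490713, plus strand): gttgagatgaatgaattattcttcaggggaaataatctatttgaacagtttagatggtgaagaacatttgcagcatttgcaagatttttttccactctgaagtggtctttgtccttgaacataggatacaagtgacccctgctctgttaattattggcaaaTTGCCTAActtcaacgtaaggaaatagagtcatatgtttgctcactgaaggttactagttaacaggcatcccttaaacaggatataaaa

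Alb holds its C/EBP-type match 94 to 87 bases and Afp 89 to 82 bases before the start.

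The other carriers did not pass the test. Hp (Entrez 15439, chromosome 8, 109575128 to 109579172) stood at 48.7, 56.3 and 58.1 CPM in control mTEChi and at 28.2, 8.13 and 42.5 CPM in HOIL-deficient mTEChi. The groups did not overlap, but the HOIL-deficient libraries were 5.22-fold apart (-1.11, SE 0.56, edgeR adjusted p = 0.18). Trf (Entrez 22041, chromosome 9, 103208876 to 103230286) stood at 111, 342 and 289 CPM against 364, 224 and 292 CPM, with overlap (0.21, SE 0.45, adjusted p = 0.79). Here the control library that stood apart was the lowest of the 6. Ttr, Ambp, which encodes alpha-1-microglobulin and bikunin, and Mup20, a major urinary protein, had fold changes of -1.76, -1.11 and -1.14. Hpx, the haem carrier hemopexin, was at -0.32.

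Among the apolipoproteins the result differed between neighbours. Apoa1, Apoc3 and Apoa4 lie side by side on chromosome 9, with 2.58 kb between the first pair and 5.21 kb between the second. Apoa1 (Entrez 11806, 46228630 to 46230469) fell from 340, 257 and 288 CPM to 201, 116 and 180 CPM, without overlap (-0.91, SE 0.28, edgeR adjusted p = 0.039). Apoc3 (Entrez 11814, 46233050 to 46235636) went from 199, 63.9 and 70.7 CPM to 29.4, 22.7 and 33.8 CPM (-2.06, SE 0.45, edgeR adjusted p = 0.0063). Every HOIL-deficient library was below every control library for both. Control replicate 1 was high for Apoc3, and without it the fold change was -1.27 (adjusted p = 0.053), the only alternative of 14 in which Apoc3 was not called. Apoa1 was not called without control replicate 1 (-0.76, adjusted p = 0.14) or control replicate 3 (adjusted p = 0.087), nor without any of the HOIL-deficient libraries (0.052 to 0.14).

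Apoa4 (Entrez 11808, 46240844 to 46243458) stood at 367, 319 and 342 CPM in control mTEChi and at 379, 279 and 303 CPM in HOIL-deficient mTEChi. The groups overlapped (-0.16, SE 0.64, edgeR adjusted p = 0.89). Whether Apoa4 differed from Apoa1 or Apoc3 in its response was not tested. Apoa2 (Entrez 11807, chromosome 1, 171221564 to 171226379) stood at 42.4, 26.5 and 27.5 CPM against 17.3, 14.5 and 29.4 CPM (-0.74, SE 0.37, adjusted p = 0.18). Apob, the scaffold of very-low-density lipoprotein, and Apoh, which binds phospholipids, had fold changes of -0.49 and -0.14 and did not pass.

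The windows before Apoa1 and Apoa4 are shown because both neighbours were among the 3 highest genes per kb in control mTEChi and 1 of them fell. They are in the direction of transcription from RefSeq on GRCm38.p6, and hold no match to any motif searched, so they carry no capitals.
Apoa1 (chr9:46228380-46228629, plus strand): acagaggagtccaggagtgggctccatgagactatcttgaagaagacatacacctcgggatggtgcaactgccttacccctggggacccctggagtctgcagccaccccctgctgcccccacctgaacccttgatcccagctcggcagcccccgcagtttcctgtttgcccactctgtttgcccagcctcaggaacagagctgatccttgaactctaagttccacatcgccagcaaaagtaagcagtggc
Apoa4 (chr9:46240594-46240843, plus strand): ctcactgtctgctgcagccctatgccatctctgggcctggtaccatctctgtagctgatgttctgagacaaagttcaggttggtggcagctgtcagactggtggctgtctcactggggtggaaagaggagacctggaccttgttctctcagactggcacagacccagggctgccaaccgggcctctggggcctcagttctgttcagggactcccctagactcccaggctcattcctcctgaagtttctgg

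Coagulation and fibrinolysis genes gave no call in mTEChi, though 6 of 7 had negative fold changes. Fgb (Entrez 110135, chromosome 3, 83042246 to 83049863) stood at 10.6, 37.3 and 35.9 CPM in control mTEChi and at 9.37, 14.4 and 5.67 CPM in HOIL-deficient mTEChi. Control replicate 1 overlapped the HOIL-deficient libraries (-1.55, SE 0.50, edgeR adjusted p = 0.056). Without that library the fold change was -1.94 (adjusted p = 0.029), and Fgb was also called with RLE or upper-quartile scaling, DESeq2, limma-voom and the mTEChi libraries alone. Fga, the alpha chain, was at -1.40 and Fgg, the gamma chain, at -0.38, with adjusted p = 0.14 and 0.47 by edgeR. Serpinc1, which encodes antithrombin, was at -1.21 and the plasminogen gene Plg at -1.36. Kng1, the kininogen gene, was at -0.22 and the prothrombin gene F2 at 0.01.

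The remaining roles also gave no call. Crp, a pentraxin of the acute phase in other species, stood at 13.3, 24.9 and 21.1 CPM against 20.6, 17.6 and 13.0 CPM, with overlap (-0.26, SE 0.51, edgeR adjusted p = 0.77). Its relative Apcs, serum amyloid P, did not pass the filter on low counts and was at or below 1.03 CPM in every library. Itih1 to Itih3 encode heavy chains that pair with bikunin and bind hyaluronan, and Itih4 encodes a relative. Itih4 (Entrez 16427, chromosome 14, 30886476 to 30901986) stood at 8.60, 12.4 and 13.3 CPM against 19.8, 16.6 and 14.7 CPM, without overlap (0.52, SE 0.60, edgeR adjusted p = 0.58). Itih1, Itih2 and Itih3 were at 0.61, -0.32 and 0.45.

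Serpina1b, an alpha-1-antitrypsin gene, had the most negative fold change, from 5.02, 3.10 and 3.47 CPM to 1.28, 0 and 0.981 CPM (-2.41, SE 1.03, edgeR adjusted p = 0.12). Only 27 counts lay behind its HOIL-deficient value. C8a stood at 1.54, 1.86 and 2.08 CPM against 0.395, 4.30 and 1.75 CPM, so that HOIL-deficient replicates lay on both sides of the controls (0.17, SE 0.84, adjusted p = 0.92). C9, the last complement component to join the membrane attack complex, was at -2.10 (adjusted p = 0.22). Cps1 was at -0.19.

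Some neighbours moved alike between replicates and others did not. In control replicate 1, Alb was the lowest of the 3 controls while Afp was close to replicate 2. In the same library Apoc3 and Apoa1 were at their highest, and all 3 fibrinogen genes were at their lowest. In HOIL-deficient replicate 1, Itih3 reached 27.3 CPM against 6.26 and 7.64 CPM in replicates 2 and 3, with its neighbours Itih4 and Itih1 also highest there. These are counts of single libraries, with no test.

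**Figure D4:**
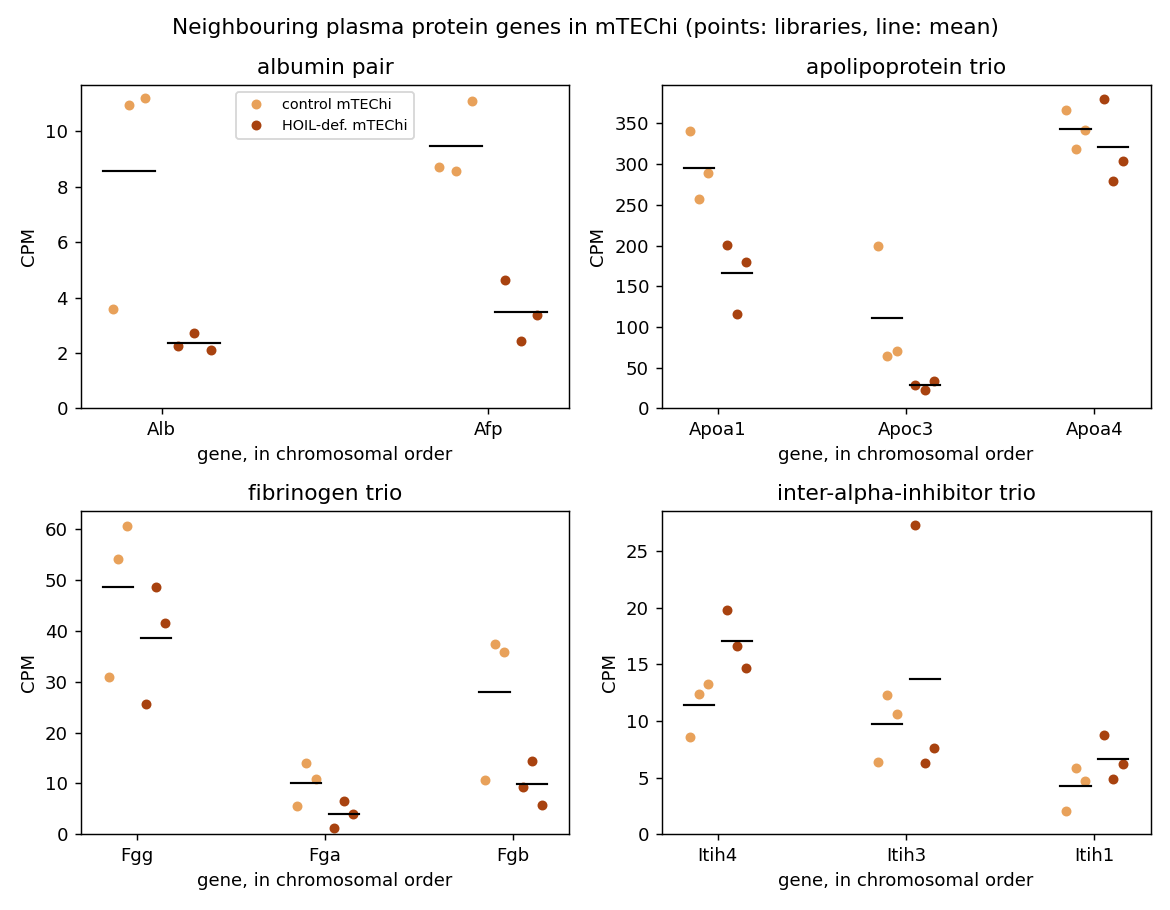
CPM of neighbouring genes in control and HOIL-deficient mTEChi (points are libraries in replicate order, lines are group means; each panel has its own linear axis from 0). Alb, Afp, Apoa1 and Apoc3 lie lower in all HOIL-deficient libraries than in all control libraries, and Apoa4, Fgg, Itih3 and Itih1 overlap.

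The same contrast in cTECs addressed these genes in the cortical population. Of 31 genes 3 rose (Hp, Itih3 and Itih4) and none fell. Over all tested genes 12.1% passed, 6.06% higher and 6.02% lower. Among the 31, 10 had no more than 3 counts in either group, so their change was not detectable at this depth, and the median with genes at 0 set at their bound was 0.37 against -0.02 over all tested genes. Every HOIL-deficient library was above every control library in 4 genes (Afp, Hp, Itih3 and Itih4), where 15.9% of all tested genes were, and in no gene below, where 12% were.

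Hp stood at 0.0921, 1.26 and 0.93 CPM in control cTECs and at 11.8, 3.59 and 3.17 CPM in HOIL-deficient cTECs. Replicate 1 of the HOIL-deficient group was the highest (log2 fold change 2.98, SE 0.77, edgeR adjusted p = 0.023). Itih3 (Entrez 16426, chromosome 14, 30908572 to 30923787) had no count in control cTECs and stood at 1.42, 0.102 and 2.41 CPM in HOIL-deficient cTECs. With 45 counts against none it was at least 13.6-fold higher over the group floor of 3 counts (edgeR adjusted p = 0.027), and replicate 2 rested on a single count. Itih4 went from 0, 0 and 1.14 CPM to 4.74, 3.79 and 1.66 CPM (3.01, SE 0.81, edgeR adjusted p = 0.027). These Hp, Itih3 and Itih4 levels were below those of every mTEChi library, except that Hp in HOIL-deficient cTEC replicate 1 exceeded Hp in HOIL-deficient mTEChi replicate 2. Afp stood at 0.737, 2.14 and 1.45 CPM against 2.61, 4.71 and 3.24 CPM and did not pass (1.22, SE 0.48, adjusted p = 0.11).

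The cTEC calls also moved with the settings. DESeq2 called 5 genes, with Apoa1 and Ttr lower in addition, limma-voom called Itih4 alone, and the fit of cTEC libraries alone called none of the 7 that it tested. Ttr had 0, 41 and 2 counts in control cTEC replicates 1 to 3, so its fall rests mainly on replicate 2. Apoa1 had 1, 0 and 5 counts there. Neither gene had a count in HOIL-deficient cTECs. Hp was not called without HOIL-deficient replicate 1 (adjusted p = 0.083), control replicate 1 (0.068) or control replicate 3 (0.063), and without control replicate 1 the only call was Ttr, as lower. Itih3 was not called without HOIL-deficient replicate 3, a library labelled female (0.083), nor without any control library (0.060, 0.060 and 0.074). Itih4 was not called without HOIL-deficient replicate 1 (0.065) or 2 (0.058), or control replicate 1 (0.058) or 2 (0.071). Without control replicate 3, the only control with Itih4 counts, the fitted Itih4 fold change was 8.03, against controls at 0.

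Markers of other cell types moved in the same cTEC libraries. Of adipocyte markers 7 of 9 rose, with a summed level of 103 to 212 CPM in controls and 432 to 793 CPM in HOIL-deficient cTECs, and of the list Plin1 and Lep were at 0 in all control libraries and Lep and Cidea in all HOIL-deficient ones. Of endothelial markers 7 of 8 rose (33.1 to 61.0 against 107 to 347 CPM), of Schwann cell markers 6 of 8 (136 to 169 against 301 to 390 CPM) and of fibroblast markers 5 of 10 (166 to 1396 against 2610 to 3742 CPM). Of cTEC markers themselves 6 of 8 fell (26470 to 32717 against 14688 to 14953 CPM). Of thymocyte markers 8 of 10 fell (872 to 3041 against 342 to 697 CPM), and of macrophage and dendritic markers 1 of 11 rose (26.8 to 33.4 against 51.2 to 124 CPM). The part of these cells in the rise of Hp, Itih3 and Itih4 was not tested. In mTEChi, 6 of 8 endothelial, 4 of 8 Schwann cell, 2 of 10 fibroblast and 2 of 9 adipocyte markers rose with HOIL deficiency, and of mTEChi markers 2 of 8 rose and 1 fell (Ccl22, -2.24, edgeR adjusted p = 0.0063, not called by DESeq2). The summed mTEChi markers went from 7945 to 10183 CPM to 11366 to 14482 CPM. The part of these and of the mitochondrial shares given above in the lower levels of Alb, Afp, Apoa1 and Apoc3 was not tested either.

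**Figure D5:**
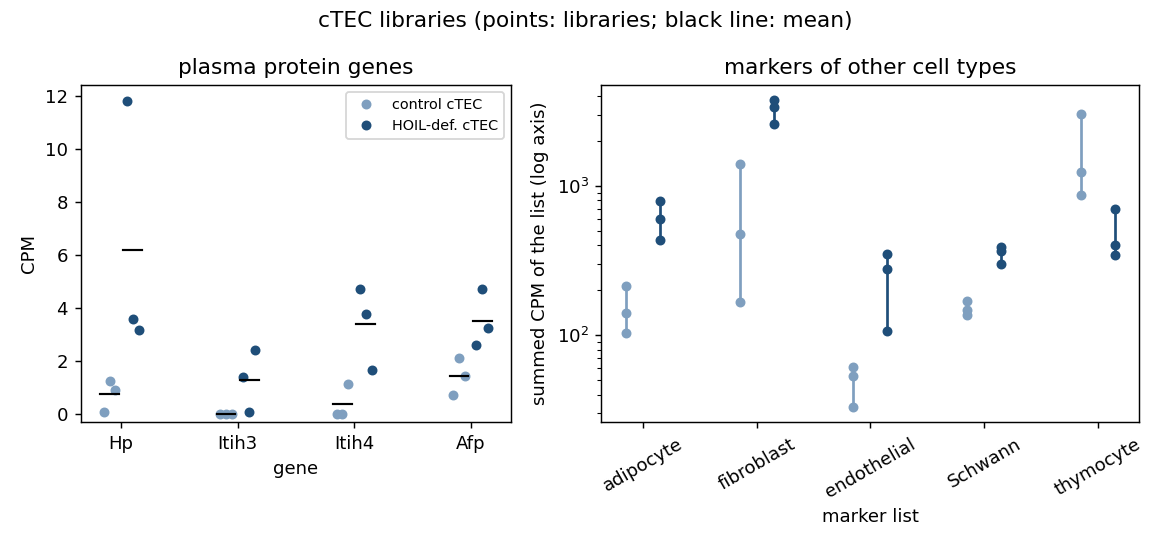
Left, CPM of Hp, Itih3, Itih4 and Afp in control and HOIL-deficient cTEC libraries (points in replicate order, black lines are means). Right, summed CPM of marker lists of other cell types in the same libraries (log axis, points are libraries), where the HOIL-deficient adipocyte, fibroblast, endothelial and Schwann cell sums lie above every control and the thymocyte sums below.

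The window before Itih4 is shown because the gene rose in cTECs. It holds no match to any motif searched, and comes from RefSeq on GRCm38.p6 in the direction of transcription.
Itih4 (chr14:30886226-30886475, plus strand): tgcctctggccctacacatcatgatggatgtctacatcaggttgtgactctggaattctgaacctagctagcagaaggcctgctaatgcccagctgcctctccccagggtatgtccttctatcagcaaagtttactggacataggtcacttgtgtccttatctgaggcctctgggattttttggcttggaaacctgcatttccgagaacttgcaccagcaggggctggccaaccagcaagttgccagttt

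Subtracting the HOIL effect in cTECs from that in mTEChi gave the difference of effects, tested as an interaction. It passed for 2 of 31 genes, Afp and Hp, both in the lower direction, where 9.84% of all tested genes passed, 3.86% lower and 5.97% higher. For Afp the difference was -2.72 (SE 0.65, edgeR adjusted p = 0.021) and for Hp -4.08 (SE 0.96, edgeR adjusted p = 0.018). The difference was not detectable for Alb, Apoa1 or Apoc3, for which cTECs held at most 6 counts a group. For Itih3 it was -6.25 (SE 2.00, adjusted p = 0.069), fitted against a control cTEC group with no count, and for Itih4 -2.49 (SE 1.01, adjusted p = 0.13). Without control cTEC replicate 3 the fitted Itih4 difference was -7.50 (adjusted p = 0.0088), again with the remaining controls at 0. Of all genes whose difference passed, 60.7% were higher on the TMM scale and 42.0% with upper-quartile scaling. The difference uses the same libraries as the comparisons within each population.

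Other genes of liver and of ectopic transcription were read from lists outside the 32. Of 59 tested genes for other plasma proteins, 10 fell and 3 rose in HOIL-deficient mTEChi, beside backgrounds of 8.59 and 11.3%, with a median log2 fold change of -0.39. Saa1, an acute-phase serum amyloid, fell from 206 to 432 CPM over control libraries to 50.4 to 76.2 CPM (-2.21, edgeR adjusted p = 0.0013). Pros1, encoding protein S, Serpinf1 and the complement gene C4b rose (2.34, 1.11 and 1.98). In cTECs 12 of the 59 rose and 1 fell, where 6.06% of all tested genes were higher and 6.02% lower, and C4b, Apoe, Serpinf1 and C1s1 had the smallest p-values among those that rose (log2 4.24, 1.67, 1.02 and 2.01).

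Of 30 tested intracellular hepatocyte genes, 3 fell (10%) and 1 rose (3.33%) in HOIL-deficient mTEChi, where 8.59% of all tested genes were lower and 11.3% higher. Among them, Ugt2b5 and Arg1 fell by 2.55 and 1.91 on the log2 scale. Hal, the histidine ammonia-lyase of liver and skin, rose by 0.69. Of these calls, that of Arg1 was lost without any single mTEChi library (adjusted p up to 0.11). That of Ugt2b5 was lost without HOIL-deficient replicate 1 or 2 or control replicate 1 or 3 (up to 0.059), and that of Hal without HOIL-deficient replicate 1 or control replicate 3 (up to 0.066). Of 14 tested genes shared by gut and liver, 6 fell (42.9%) and none rose. Muc13, a membrane mucin, fell from 96.6 to 116 CPM to 23.4 to 24.7 CPM (-2.21, edgeR adjusted p = 0.00036), and Pigr, Lypd8 and Fabp1 fell by 4.54, 1.70 and 1.84 on the log2 scale, Fabp1 not without control mTEChi replicate 1. The summed level of those 14 went from 4433 to 4557 CPM to 1621 to 2229 CPM. Of 14 tested genes of other organs, 5 fell (35.7%) and none rose, and Ins2, Iapp and Sst, hormone genes of the pancreatic islet, fell by 2.49, 1.57 and 1.81 on the log2 scale.

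Of 16 tested liver transcription factor genes, 3 fell (18.8%) and 2 rose (12.5%) in HOIL-deficient mTEChi, again beside 8.59 and 11.3% of all tested genes. Cebpb, a C/EBP family gene, fell from 184 to 223 CPM to 84.2 to 109 CPM (-1.17, SE 0.19, edgeR adjusted p = 0.0012). Foxa2, a pioneer factor of liver and gut, fell from 5.32 to 6.45 CPM to 0.841 to 1.68 CPM (-2.30, SE 0.60, edgeR adjusted p = 0.025). The Foxa2 call was lost with a replicate block and without any single mTEChi library except HOIL-deficient replicate 3 (adjusted p up to 0.099). Zbtb20, a repressor of Afp in adult liver, rose (0.92, adjusted p = 0.0041). Hnf4a stood at 3.83 to 4.30 CPM in controls and at 3.26 to 5.42 CPM in HOIL-deficient mTEChi (0.07, adjusted p = 0.97, with the other sign in 6 of 14 alternatives), and Hnf4g, its relative in gut, at 17.2 to 20.8 against 8.22 to 13.1 CPM (-0.86, adjusted p = 0.18). Of 12 tested regulators of ectopic transcription, 1 rose, Top2a (1.195), and 1 fell, each 8.33% of the list and near or below the background. Aire had a fold change of 0.22 (adjusted p = 0.71) and Fezf2 of 0.77 (adjusted p = 0.17), neither past the test.

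Promoter windows of 250 bases before the start were found for 24 of the 32 genes, in 25 windows. The start is that of a transcript in the RefSeq table, and 4 of the windows, those of Itih3, C8a and Apob and 1 of Apoa2, lie in part or whole inside the gene as annotated. Ttr, Trf, Hp, Mup20, Apoc3, Plg, Kng1 and Cps1 had none in the table used. The C/EBP-type motif TTGCNNAA, on either strand, was in 11 of the 25 windows (44.0%) and in 9.56% of all 32851 windows. These 11 were before Apoa2, Itih2, Fga, Fgb, Alb, Afp, Hpx, Apob, Serpina1b, C9 and Ahsg. Of these genes, only Alb and Afp were called lower in HOIL-deficient mTEChi in the main fit. Apoa1, also called lower, had no match, and Apoc3 had no window. A link between the motif and the calls was not tested. The HNF4 core CAAAGTCC was in none against 1.196%, and TATAAA at 40 to 20 bases before the start was in 1 (Crp) against 1.87%. The windows held a median of 46.4% G and C and 2 CpG, against 52.4% and 6 over all windows, and the part of base composition in the motif shares was not tested. A match is a description of letters and does not show that a factor binds there.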

How the data were processed

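The members and all gene lists were chosen with earlier results of these data known. The authors deposited raw counts per gene and library, with gene lengths, made with featureCounts on mm10 per the submitters' processing notes. For the aligner, the annotation and the strand setting, details were not given in the sources used here. Per the labels' protocols, libraries were made with SMART-Seq v4 and Nextera XT and read as 75-base pairs on a NextSeq 500.

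Entrez identifiers were matched to a RefSeq table of GRCm38.p6, which gave 25275 of 27179 rows a symbol. The other rows held 4.53 to 6.10% of counts. Counts were fitted in R 4.3.3 with edgeR 4.0.16 (filterByExpr on the 4 groups, 19398 genes, TMM, robust quasi-likelihood fit of all 12 libraries with 1 coefficient per group). P-values were adjusted by Benjamini-Hochberg across all tested genes and called under 0.05. The SE is approximate: the absolute log2 fold change divided by the square root of F. It is least reliable for groups near 0. Ratios are of summed counts over summed totals. A group at 0 was read as 3 counts over the group. Alternatives used limma 3.58.1 and DESeq2 1.42.0. The script was tested on simulated data. Alternatives also changed the scaling and the filter, added a replicate block, fitted only the groups compared, and left out the libraries labelled female or each library in turn.

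Values are named by a rule: genes called in a HOIL comparison, the 6 highest and the lowest per kilobase in control mTEChi, at least 1 per role, up to 4 called genes of each other list with the smallest p, and Hnf4a, Hnf4g, Aire and Fezf2. Some genes that the rule names are not reported here. Genes beside these, named after their values were seen, are given with their values only. A table joining all libraries was not used.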

Additional observations from a re-analysis of the deposited data

Results flagged for a closer look

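The HOIL effect on Afp differed between the populations in a test of the difference itself, by -2.72 on the log2 scale (mTEChi effect minus cTEC effect, edgeR adjusted p = 0.021). The effects were -1.50 in mTEChi and 1.22 in cTECs, where the latter did not pass on its own. The difference was called in 17 of 19 alternatives, with adjusted p-values from 0.00047 to 0.061, and was lost without the libraries labelled female (0.057) and without control mTEChi replicate 3 (0.061).

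The HOIL effect on Hp differed by -4.08 (edgeR adjusted p = 0.018), with effects of -1.11 in mTEChi and 2.98 in cTECs. It was called in all 19 alternatives run, with adjusted p-values from 0.00014 to 0.0465. These were 2 of 31 genes tested, where 9.84% of all tested genes passed, 3.86% lower and 5.97% higher. The summed levels of adipocyte, fibroblast, endothelial and Schwann cell markers were higher in the same HOIL-deficient cTEC libraries. Their part in the differences was not tested.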

How the results depend on the processing

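Of the 32 genes, those called in HOIL-deficient against control mTEChi numbered 4 as reported, 13 with limma-voom, 8 with only the mTEChi libraries, 2 with a replicate block, 2 without the libraries labelled female and 1 to 2 without a single library. In cTECs the number was 3 as reported, 5 with DESeq2, 1 with limma-voom, 0 with only the cTEC libraries (where 7 passed the filter) and 1 to 2 without a single library. For the difference of the HOIL effects it was 2, with 5 by DESeq2, 1 without the female libraries and 1 to 3 without a single library. The calls between mTEChi and cTECs numbered 30 to 31 in controls and 24 to 28 in HOIL-deficient cells under every alternative run.

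Over all genes, the cTEC calls fell from 2342 to 1540 without the female libraries, to 1395 with only the cTEC libraries and to 1340 to 2306 without a single library. The calls for the difference went from 1908 to 1030 without the female libraries and 949 to 2088 without a single library, and the mTEChi calls from 3858 to 1944 to 3116 without a single library. Over every alternative run, all-gene calls ranged from 1944 to 4863 in mTEChi and from 1340 to 3332 in cTECs. The list counts under the alternatives therefore have a moving background and are not read against it. Genes detected per library averaged 15.3 in control cTECs, 8.33 at 5 counts or more and 6.33 at 1 CPM or more. By the same 3 rules, HOIL-deficient cTECs averaged 13.3, 10 and 7.67, control mTEChi averaged 32, 31.7 and 31.3, and HOIL-deficient mTEChi averaged 31, 30 and 29. The summed level averaged 1451 CPM in control mTEChi, 1539 on the TMM scale and 1109 without Apoa4, and 1098 and 778 without Apoa4 in HOIL-deficient mTEChi. The cause of these moves was not tested.

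The labels do not say whether same-numbered cTEC and mTEChi libraries share animals. Correlations of their deviations from the group mean were 0.00035, 0.098 and -0.037 in controls, and 0.049, 0.078 and 0.035 in HOIL-deficient libraries. Unlike numbers gave -0.055 to 0.063 in controls and -0.060 to 0.019 in HOIL-deficient libraries. These values do not settle whether the 2 populations were paired. The main fit took the numbers as no pairing, also for the tests between populations and of the difference. With the replicate block, 3288 genes were called in mTEChi, 1799 in cTECs and 1484 for the difference. Low counts limit the cTEC comparison, where 10 of 31 genes had 3 counts or fewer in both groups, and 3 libraries a group limit all comparisons.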
